A study of Mus musculus with 4 samples.

Results

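Box H/ACA small nucleolar RNAs (snoRNAs) and small Cajal body RNAs (scaRNAs) were followed in RNA immunoprecipitation (RIP) libraries from mouse testis. Members were the gene models whose symbol begins with Snora or Scarna, 51 of the 50600 models in the files, of which 41 were Snora and 10 were Scarna. The tissue was testis of C57BL/6 mice aged 8 weeks, and no group carried a genetic change. In a RIP, an antibody on beads draws a protein out of a lysate with the RNAs held by it, and a non-specific IgG measures what sticks to the beads. There were 2 libraries made with an antibody to LARP7 and 2 made with IgG, described by the submitters as biological replicates. The labels do not say how many animals went into a library, and the files hold no input RNA. All libraries were small-RNA libraries with inserts of 15 to 300 nt.

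Box H/ACA RNAs fold into hairpins joined by a hinge and end shortly after the trinucleotide ACA. Together with dyskerin, Nop10, Nhp2 and Gar1 they form particles that turn chosen uridines into pseudouridine. The Snora RNAs act in the nucleolus, mostly on ribosomal RNA, and most are cut from the introns of other genes. The scaRNAs carry signals that hold them in Cajal bodies, where they guide changes in the spliceosomal RNAs. LARP7 is a La-related protein known for binding 7SK RNA and U6 RNA, the second of which is modified by guide RNAs. The name scaRNA covers more than one structure: by textbook class, Scarna2, Scarna9 and Scarna17 are box C/D RNAs, which guide 2'-O-methylation. Scarna6 and Scarna10 carry both kinds of box, and Scarna3a, Scarna3b, Scarna8 and Scarna13 are box H/ACA. The label "box H/ACA" therefore fits only some of the Scarna models, and the structural classes are kept apart below.

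Some members hold a microRNA hairpin, so that small RNA reads from one locus can be counted under either of 2 gene models. The 4 hairpins printed below are the only stretches of the members shown here. These 4 lie at the members' 3' ends, some stopping just short of the end and some running past it. Only an ACA within a few bases of the member's end was marked, so the short distances to that end follow from the choice. Hairpins overlapping Snora34 and Snora19 are not printed, and that of Snora34 had no such ACA. The 4 hairpins below, from RefSeq on GRCm38.p6, are printed 5' to 3' with this ACA in capitals. The members end 3, 4, 1 and 3 bases after it, in the order printed.
Scarna13 (Mir3069): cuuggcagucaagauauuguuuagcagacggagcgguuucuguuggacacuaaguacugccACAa
Scarna3a (Mir1843b): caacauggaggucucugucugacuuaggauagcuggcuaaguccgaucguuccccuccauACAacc
Scarna3b (Mir1843a): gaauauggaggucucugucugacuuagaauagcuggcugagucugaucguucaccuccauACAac
Snora36b (Mir664): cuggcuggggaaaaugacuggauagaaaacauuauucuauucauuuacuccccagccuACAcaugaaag
They lie at chr12:105031077-105031141 (minus strand), chr1:159340358-159340423 (plus), chr12:80391613-80391677 (minus) and chr1:185242975-185243043 (plus). The hairpins of the paralogs Scarna3a and Scarna3b had 59 identical bases in 66 aligned columns. RefSeq gives Scarna3b 124 bases, the length of its model without counts and not of its model with counts. The letters ACA occurred in 67.3% of 1005 RefSeq mouse hairpins, and in the last 10 bases of 14.9%, so the match describes these ends and identifies no site by itself.

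Libraries held 6918040 and 6502682 expected counts with LARP7 antibody, and 6994514 and 4411271 with IgG. An expected count is RSEM's estimate, in which reads that map to several models are divided among them. Members were a small share of these libraries, and counting error is large for most of them. Snora models took 0.0131% and 0.0201% of the LARP7 counts and 0.0149% and 0.0217% of the IgG counts. Scarna models took 0.123% and 0.0898% with LARP7 and 0.07% and 0.0477% with IgG. Box C/D snoRNAs, the 99 Snord models, took 29.4%, 19.8%, 9.41% and 13.8% of the same libraries.

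The 41 Snora models were 121 to 205 nt long (median 132), and 28 of them had counts in all 4 libraries. No count at all was found for 4 of them, and 5 more had fewer than 10 in total. Of the 10 Scarna models, 70 to 414 nt long (median 140), 8 had counts in all 4 libraries and 1, a Scarna3b model (ENSMUSG00000112285.1), had none. The filter on low counts kept 24 Snora and 9 Scarna models, of which 3 and 1 passed through one group alone. Those models had to differ to be kept. Snora16a and Scarna3b each have more than one model in the files.

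**Figure D1:**
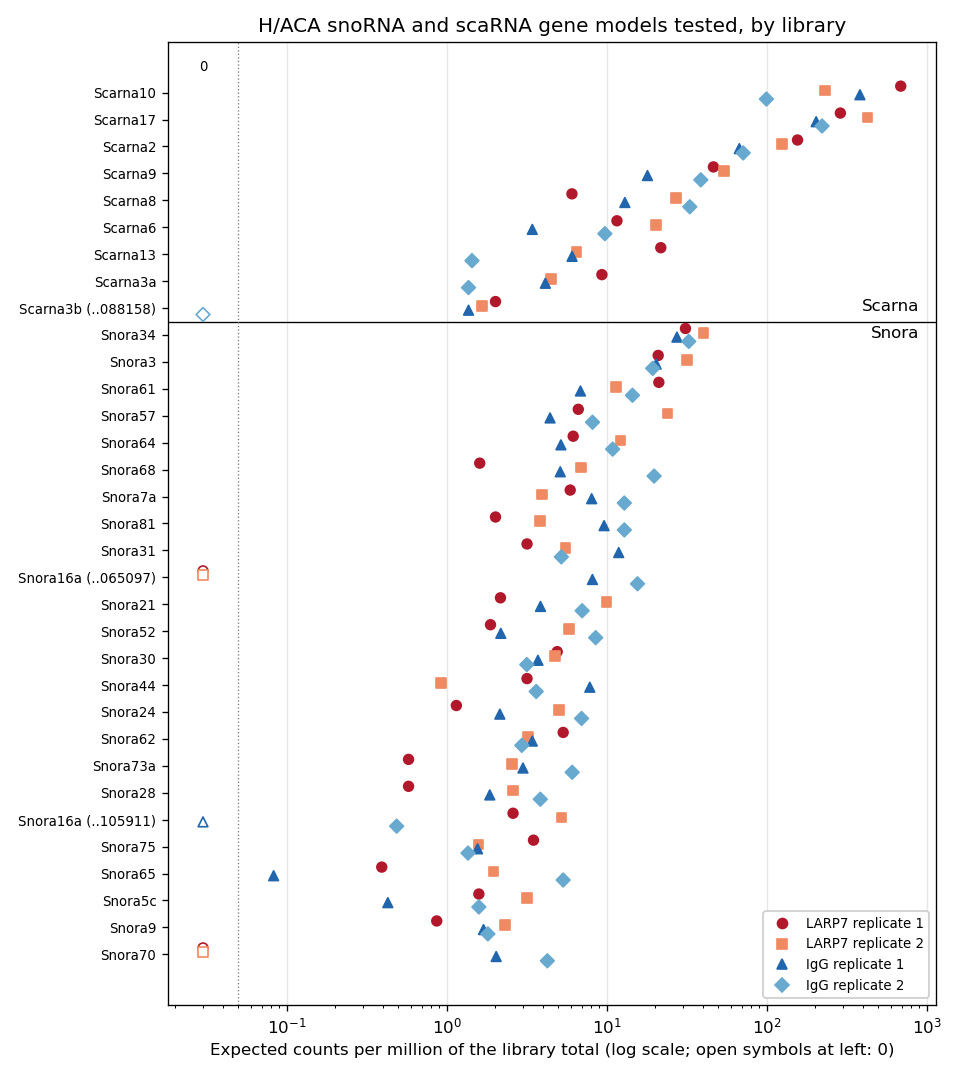
Expected counts scaled to the library total as CPM (horizontal axis, log scale) for the 33 tested members, 1 row per gene model and 1 symbol per library; open symbols at the left edge mark a value of 0. Scarna10 and Scarna17 have the highest levels, and both LARP7 libraries are at 0 for Snora70 and for 1 of the 2 Snora16a models.

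The size of every difference depends on how libraries are set to a common scale. TMM, which assumes that most genes do not differ, set the factors of LARP7 replicates 1 and 2 to 0.558 and 0.673, and those of IgG to 1.85 and 1.44. The median log2 difference over 12234 tested models was -0.05 under TMM and -1.46 with library totals, the shift between the settings being -1.41. A member that is higher under both scalings is therefore higher as a share of the library and also against the bulk of other RNAs. Fold changes below are TMM-scaled, from edgeR's quasi-likelihood test with Benjamini-Hochberg adjustment over all 12234 models, and the library-total value stands beside them. Nothing in the labels ties a library to one animal, so p-values measure the spread between these libraries.

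Summed over their members, scaRNAs were higher with LARP7 under TMM, while the sum of nucleolar Snora RNAs did not pass. Scarna models stood at 1232 and 898 CPM of the library total with LARP7 and at 700 and 477 with IgG, and the groups did not overlap. Their TMM-scaled sum was 1777 ± 619 CPM with LARP7 and 358 ± 35.1 with IgG (SD, n = 2), a 4.97-fold difference (log2 2.31, SE 0.68, edgeR adjusted p = 0.0336). With library totals the log2 difference was 0.85 (adjusted p = 0.262), which did not pass. Snora models stood at 131 and 201 CPM with LARP7 against 149 and 217 with IgG, and these ranges overlap. Their TMM-scaled sum was 268 ± 45 against 117 ± 49.6 CPM (log2 1.20, SE 0.58, adjusted p = 0.151), and with library totals the sign turned (-0.14, adjusted p = 0.856). Dropping LARP7 replicate 1 ended the call of the Scarna sum (1.89, adjusted p = 0.191), as did dropping LARP7 replicate 2 (2.63, adjusted p = 0.121).

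Ratios inside a library do not depend on scaling. The files held 9.38 and 4.47 Scarna counts per Snora count with LARP7, and 4.69 and 2.2 with IgG. LARP7 replicate 2 lay below IgG replicate 1, so the groups overlapped (log2 difference 1.01, exact two-sided permutation p = 0.667). For the box C/D scaRNAs alone the ratio to Snora was 3.74 and 3.02 with LARP7 and 1.94 and 1.53 with IgG, without overlap. That difference was 0.97 on the log2 scale, and its exact permutation p of 0.333 is the smallest that 2 libraries against 2 can give. For the box H/ACA scaRNAs alone there were 3.34 and 5.06 Snora counts per Scarna count with LARP7 and 6.07 and 6.06 with IgG, also without overlap (log2 difference -0.56, exact permutation p = 0.333). With the mixed scaRNAs added to these, the ratio to Snora was 5.64 and 1.45 against 2.75 and 0.669, which overlapped (1.08, exact permutation p = 0.667).

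Against box C/D snoRNAs, the LARP7 libraries held fewer Snora counts. There were 2242 and 986 Snord counts per Snora count with LARP7 and 630 and 636 with IgG. Snora per Snord thus differed by -1.23 on the log2 scale, without overlap (exact two-sided permutation p = 0.333). Scarna per Snord differed by -0.22 (exact permutation p = 1). The Scarna class as a whole was not distinguished from Snord by this measure, and with 2 libraries a group no difference in ratio could reach 0.05.

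**Figure D2:**
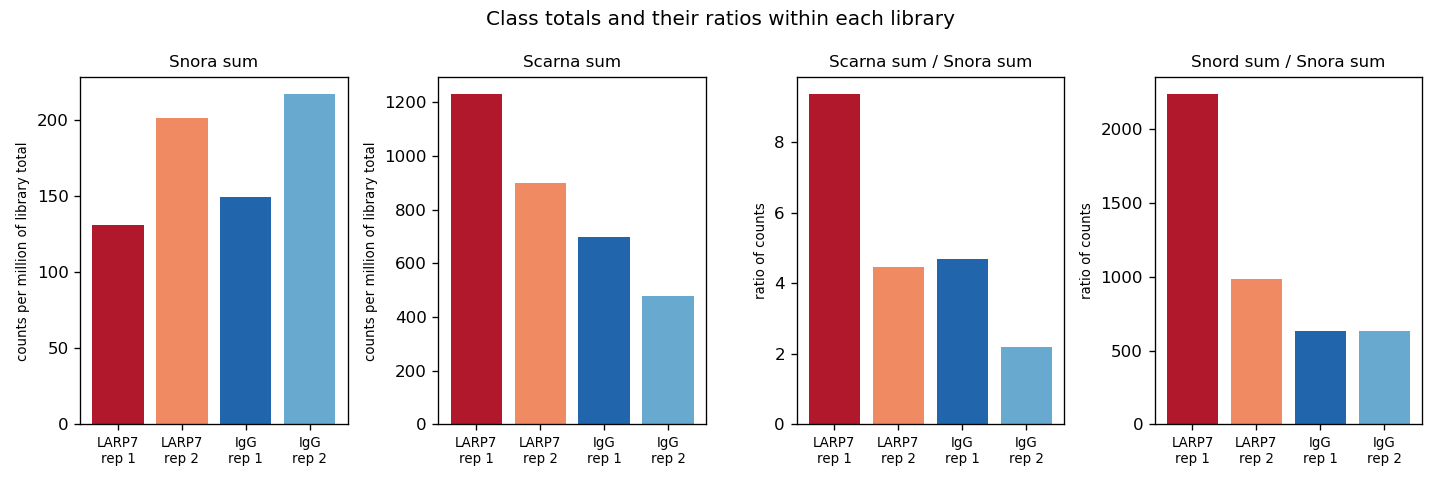
Bars give, for each of the 4 libraries, the Snora and Scarna sums in CPM of the library total and the ratios of Scarna to Snora and of Snord to Snora counts. Scarna per Snora runs from 2.2 to 9.38 with the groups overlapping, while Snord per Snora is 2242 and 986 with LARP7 against 630 and 636 with IgG.

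Member by member, 7 of 9 tested Scarna models were called higher with LARP7, beside 14.5% of all models tested. None of the 9 was lower in edgeR (0 at an unadjusted p under 0.05), beside 9.69% of all models, and DESeq2 also called 0 lower, beside 6.74%. Under library totals edgeR called 2 of the 9 higher and 0 lower, beside 3.74% and 46.6% of all models. The median log2 difference of the 9 was 2.51 under TMM and 1.02 with library totals. Among the 24 Snora models, 7 calls were for higher and 2 for lower levels under TMM, and the median difference was 1.01. Of these calls both of the lower ones and 1 of the higher ones were of the 3 models that passed the filter through one group alone, which leaves 6 higher calls and 0 lower (0 at an unadjusted p under 0.05, edgeR) among the other 21. Library totals gave 2 and 4 such calls and a median of -0.30. Of 81 tested Snord models 31 were higher and 0 lower (0 lower at an unadjusted p under 0.05, edgeR), and their median was 1.70.

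Counting libraries rather than calls, both LARP7 libraries lay above both IgG libraries for 8 of 9 Scarna and 11 of 24 Snora models in TMM-scaled CPM, beside 32.9% of all tested models. With library totals this held for 7 Scarna and 5 Snora models, beside 9.7%. All of these counts include a model that passed the filter through the LARP7 libraries alone and so had to differ. That model was Scarna3b (ENSMUSG00000088158.1) for Scarna and the 137 nt Snora16a model for Snora.

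**Figure D3:**
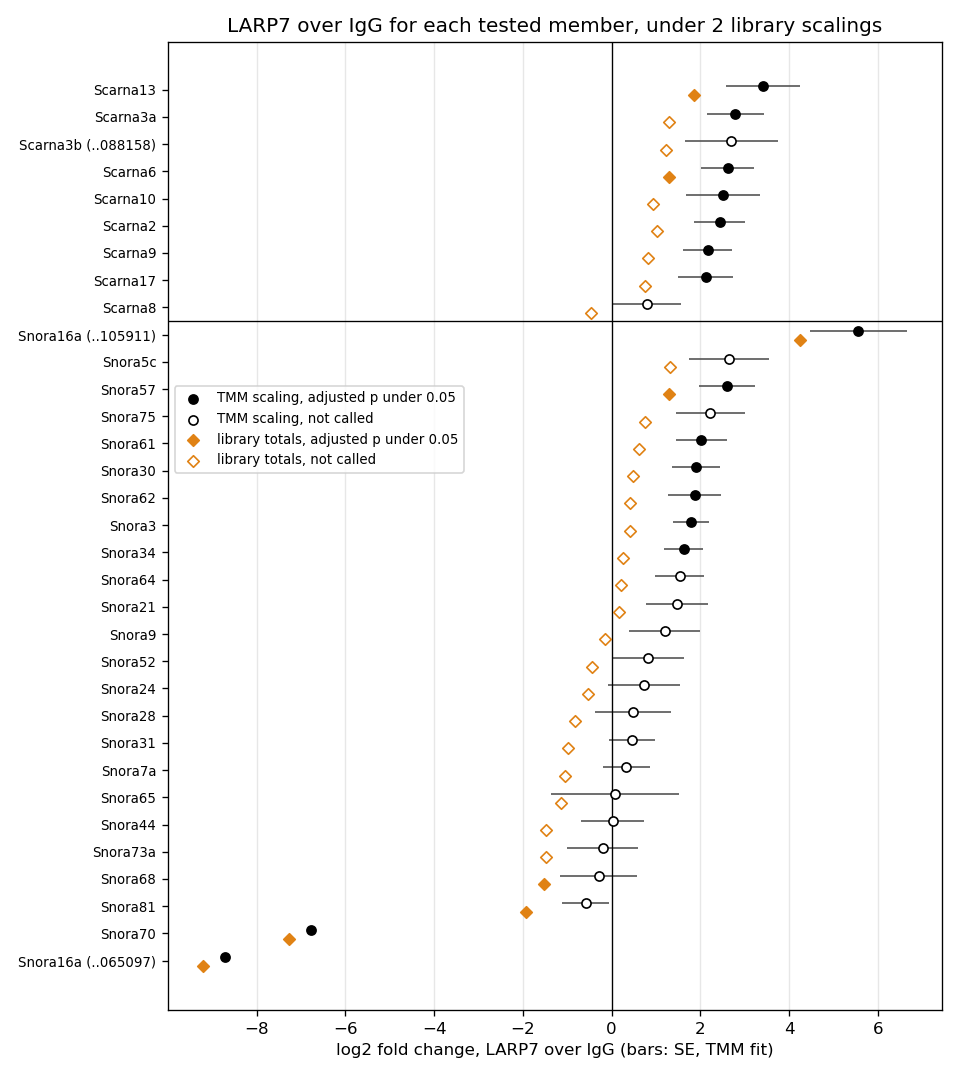
Log2 fold change, LARP7 over IgG, of each tested Scarna and Snora model under TMM scaling (circles, bars give the SE) and under library totals (diamonds), filled where the adjusted p was under 0.05. The points of Snora70 and the lower Snora16a model, with 0 LARP7 counts, depend on the fit's prior count and have no SE bar. Under TMM 7 Scarna and 7 Snora models are called higher; under library totals 2 of each are.

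The box C/D scaRNAs were called throughout under TMM. Their summed level was 894 ± 13.8 CPM with LARP7 and 195 ± 52.1 with IgG (log2 2.20, SE 0.64, edgeR adjusted p = 0.0319), and all 3 were called. Scarna17 (ENSMUSG00000088689.1), a model of 79 nt, had 1998 and 2775 counts with LARP7 and 1424 and 978 with IgG. Both LARP7 libraries were above both IgG libraries, at 578 ± 83.2 against 133 ± 30.7 CPM (2.12, SE 0.62, adjusted p = 0.0323; library totals 0.75). Scarna9 (ENSMUSG00000077506.1), a guide for U2 RNA within Cep295 on chromosome 9, had 322 and 351 counts with LARP7 and 126 and 171 with IgG. Its level was 82.1 ± 2.20 against 18.4 ± 12.2 CPM (2.16, SE 0.55, adjusted p = 0.0213; library totals 0.83). Scarna2 (ENSMUSG00000088185.1), also a U2 guide and the one member placed outside any other gene, had 1082 and 811 counts with LARP7 and 472 and 315 with IgG. Its level was 234 ± 67.2 against 43.4 ± 9.17 CPM (2.43, SE 0.57, adjusted p = 0.016; library totals 1.02). None of the 3 passed with library totals.

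Both scaRNAs of mixed structure were called, and they differed in how far replicates scattered. Scarna10 (ENSMUSG00000089617.1), a guide for U5 RNA within Ncapd2 on chromosome 6, had 4769 and 1510 counts with LARP7 and 2681 and 440 with IgG. LARP7 replicate 2 held fewer counts than IgG replicate 1, and as a share of the library the groups overlap. Its level was 793 ± 631 against 139 ± 98.9 CPM (2.51, SE 0.83, edgeR adjusted p = 0.0498; library totals 0.93). Without LARP7 replicate 1 its log2 difference fell to 1.30 (adjusted p = 0.321). Scarna6 (ENSMUSG00000089281.1), within Atg16l1 on chromosome 1, had 80 and 132 counts with LARP7 and 24 and 43 with IgG. It was at 25.5 ± 6.72 against 4.34 ± 3.48 CPM (2.61, SE 0.59, adjusted p = 0.016) and also passed with library totals (1.30, adjusted p = 0.0408).

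Among the box H/ACA scaRNAs, 2 of 4 tested models were called, and all were low in counts. Their sum was 64.9 ± 8.02 CPM with LARP7 and 19.2 ± 8.21 with IgG (log2 1.76, SE 0.48, edgeR adjusted p = 0.0256; library totals 0.39, adjusted p = 0.54). Scarna13 (ENSMUSG00000088789.1), within the long non-coding RNA Snhg10 on chromosome 12, had 151 and 42.1 counts with LARP7 and 42.5 and 6.34 with IgG. It was at 24.4 ± 20.9 against 2.16 ± 1.64 CPM (3.41, SE 0.83, adjusted p = 0.0284) and passed with library totals (1.86, adjusted p = 0.00611). Its 2 LARP7 libraries differed more than 3-fold in counts, and dropping LARP7 replicate 1 ended the call (2.08, adjusted p = 0.094). Scarna3a (ENSMUSG00000089536.1), within Cop1 on chromosome 1, had 64.6 and 29.2 counts against 29 and 6.03 (2.79, SE 0.64, adjusted p = 0.0152; library totals 1.29, adjusted p = 0.107). Scarna3b (ENSMUSG00000088158.1) had 14 and 10.8 counts against 9.59 and 0, and did not pass (2.70, SE 1.04, adjusted p = 0.0765). It was kept by the filter through its LARP7 libraries alone, and it passed with posterior mean counts (2.76, edgeR adjusted p = 0.0486). Scarna8 (ENSMUSG00000088958.1), within Haus6 on chromosome 4, had 42 and 176 counts against 91 and 146. Its groups overlap, and it was not called (0.79, SE 0.77, adjusted p = 0.489; library totals -0.47).

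Each fit that left out 1 library compared 2 libraries with 1, and the lone library was assumed to vary like the others. No Scarna call passed in all 4 such fits, which have less power than the full one, and a call missed there does not by itself show a smaller difference. Without LARP7 replicate 1, 3 of the 7 were still called (Scarna2, Scarna6 and Scarna9), beside 9.7% of all models. Without LARP7 replicate 2 there were also 3 (Scarna2, Scarna3a and Scarna13), beside 4.62%. Without IgG replicate 1, Scarna2, Scarna9 and Scarna17 lost their calls, at 2.23 (adjusted p = 0.051), 1.60 (0.133) and 1.90 (0.0945), beside 12.2% of all models called higher. Without IgG replicate 2, of these 7 Scarna10 alone lost its call (1.98, adjusted p = 0.08), beside 15.2%.

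The shares of the leading scaRNAs within their class followed the replicate number more than the antibody. Scarna10 was 56% and 54.7% of Scarna counts in LARP7 replicate 1 and IgG replicate 1, but 25.9% and 20.9% in LARP7 replicate 2 and IgG replicate 2. Scarna17 ran the other way, at 23.4% and 29.1% in the first replicates and 47.5% and 46.5% in the second. Scarna10, Scarna17 and Scarna2 together made 92.1%, 87.3%, 93.4% and 82.3% of the class in LARP7 replicates 1 and 2 and IgG replicates 1 and 2. The labels give no batch that would pair the numbers, and whether one lies behind these shares was not tested.

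**Figure D4:**
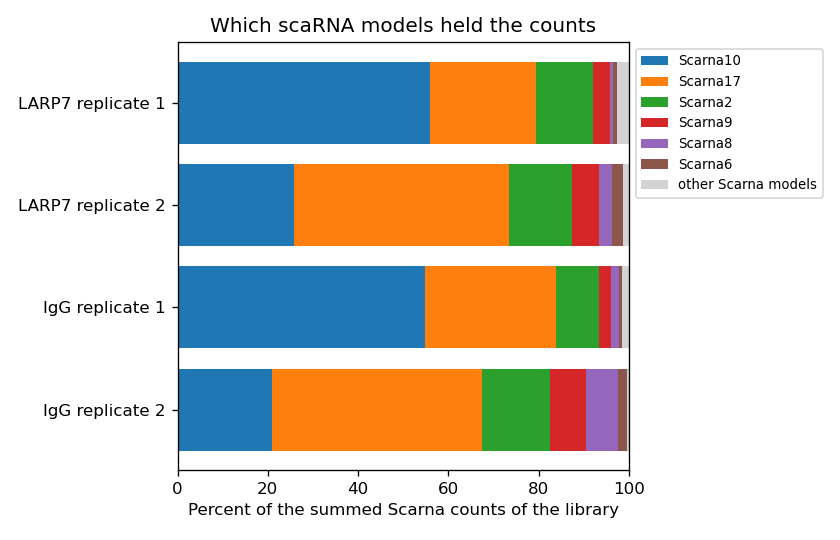
Share of Scarna expected counts, in percent, taken by each scaRNA in the 4 libraries. Scarna10 holds 56% and 54.7% in the libraries numbered 1 and 25.9% and 20.9% in those numbered 2, whichever antibody was used.

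Per unit of length, in the authors' TPM, Scarna17 was the highest member in all 4 libraries, at 345 and 793 with LARP7 and 787 and 595 with IgG. Scarna9 followed at 88.7 and 146 against 98 and 153, and Scarna10, at 63.7 and 37 against 135 and 22.9, was above Scarna9 in IgG replicate 1 only. Among Snora RNAs, Snora34 had 9.91 and 21.8 TPM with LARP7 and 32.9 and 25.3 with IgG, and Snora3 had 7.24 and 18.6 against 26.4 and 16.3. On this scale the groups overlapped for each of these members but Snora34, whose LARP7 values were both below its IgG values. With limma on log2(TPM + 1) 0 Scarna and 0 Snora models were called higher, beside 0.0409% of all models, and 1 Snora model was lower, beside 0.155%. Of the 14 members called higher under TMM, 10 had a negative difference on that scale. The class sums differed by -0.36 for Scarna and -1.32 for Snora. The models of Scarna2 (414 nt) and Scarna10 (325 nt) are longer than the largest insert kept, while RefSeq gives 61 and 71 bases for these genes. Where reads lie along the models was not examined.

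Among Snora RNAs, the 3 most abundant were all called higher under TMM and none of them with library totals. Snora34 (ENSMUSG00000065336.1), within Kansl2 on chromosome 15, had 215 and 262 counts with LARP7 and 192 and 144 with IgG. Its level was 58.0 ± 3.01 against 18.9 ± 5.50 CPM (log2 1.62, SE 0.44, edgeR adjusted p = 0.0262; library totals 0.25). Snora3 (ENSMUSG00000065016.1), within the ribosomal protein gene Rpl27a on chromosome 7, had 145 and 207 counts against 143 and 85.5. It was at 42.6 ± 6.90 against 12.3 ± 1.67 CPM (1.79, SE 0.40, adjusted p = 0.0140; library totals 0.41). Snora61 (ENSMUSG00000064949.1), within the host RNA Snhg12 on chromosome 4, had 147 and 74 counts against 48 and 63.8. It was at 27.6 ± 15.0 against 6.92 ± 4.49 CPM (2.02, SE 0.57, adjusted p = 0.0319; library totals 0.62). These 3 together were 55.8% and 41.6% of Snora counts with LARP7 and 36.7% and 30.6% with IgG.

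Snora57 (ENSMUSG00000070167.1), within Lbhd1 on chromosome 19, was one of 2 Snora models called higher under both scalings. It had 46 and 156 counts with LARP7 and 31 and 36 with IgG, or 23.9 ± 16.9 against 4.06 ± 2.31 CPM (log2 2.60, SE 0.63, edgeR adjusted p = 0.0206; library totals 1.30, adjusted p = 0.0434). In CPM of the library total, LARP7 replicate 1 (6.65) lay between IgG replicate 1 (4.43) and IgG replicate 2 (8.16). Dropping LARP7 replicate 2 ended the call (1.59, adjusted p = 0.161). The other model called higher under both is a Snora16a copy, described below. Snora30, within Srcap, had 34 and 31 counts against 26 and 14 (1.90, SE 0.53, adjusted p = 0.0276; library totals 0.48). Snora62, within Rpsa, had 37 and 21 against 24 and 13 (1.87, SE 0.59, adjusted p = 0.0407; library totals 0.42).

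Other abundant Snora RNAs were not called under TMM. Snora64 (1.53, edgeR adjusted p = 0.0635) and Snora21 (1.47, adjusted p = 0.141) had positive differences. Snora64 passed with posterior mean counts (adjusted p = 0.0475), with no filter (0.0361) and without IgG replicate 2 (0.00891). Snora21 passed without LARP7 replicate 1 (0.0422) or IgG replicate 2 (0.0186). Snora31 (0.45, adjusted p = 0.543) and Snora7a (0.33, adjusted p = 0.671) turned negative with library totals, at -0.98 and -1.06. Snora68 had 11.1 and 44.7 counts with LARP7 and 35.9 and 87.2 with IgG (-0.29, adjusted p = 0.833; library totals -1.53, adjusted p = 0.0285). Snora81, within Eif4a2, had 14 and 24.9 counts against 67.4 and 57. Its log2 difference was -0.58, and -1.93 with library totals (edgeR adjusted p = 0.00708). The groups did not overlap in CPM of the library total. In TMM-scaled CPM they did, at 3.64 and 5.72 with LARP7 against 5.26 and 9.01 with IgG. Snora68 and Snora81 were thus called lower with library totals only.

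The number of Snora calls also varied in these fits. Without IgG replicate 1, 3 Snora models were called higher, beside 12.2% of all models. Snora3, Snora30, Snora34, Snora61 and Snora62 were then not called, at 1.66, 1.84, 1.35, 1.45 and 1.80, each under 1.5 times from its fold with all libraries. Without LARP7 replicate 2 there were likewise 3 (beside 4.62%), and without LARP7 replicate 1 there were 6 (9.7%). Without IgG replicate 2 there were 14 (15.2%). The lower calls numbered 1 when either LARP7 library was dropped (beside 6.29% of all models for replicate 1 and 1.38% for replicate 2). They numbered 2 without IgG replicate 1 (6.28%) and 1 without IgG replicate 2 (6.32%). Across the other settings, lower Snora models numbered 0 with RSEM's posterior mean counts (beside 11%), 1 with models of one symbol summed (9.7%) and 1 with DESeq2 (6.74%).

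Both lower calls under TMM were models with no count in either LARP7 library. They passed the filter through the IgG libraries alone and so had to differ to be tested. Snora70 (ENSMUSG00000064981.1), within Rpl10 on chromosome X, had 0 and 0 counts with LARP7 and 14.3 and 18.8 with IgG (edgeR adjusted p = 0.0269). Set against a floor of 3 counts over the group, it was at least 4.73-fold lower under TMM and 13.0-fold with library totals. Dropping either LARP7 library ended the call (adjusted p = 0.135 without replicate 1 and 0.201 without replicate 2), and without IgG replicate 2 the model fell below the filter.

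Snora16a, within Snhg12, moved in opposite directions in its 2 models. The model of 136 nt (ENSMUSG00000065097.1), which has the length of the RefSeq gene, had 0 and 0 counts with LARP7 and 57 and 68.8 with IgG. Set against the same floor as Snora70, it was 18.0-fold lower (edgeR adjusted p = 0.00594), and 49.4-fold with library totals. These folds are not lower bounds, because the floor leaves out error in dividing reads between the 2 models. RSEM's posterior mean counts for the 136 nt model were 6.1 and 14.9 with LARP7 and 34.8 and 38.7 with IgG. Leaving out 1 library gave log2 differences of -8.90 to -7.95, which depend on the fit's prior count. The model of 137 nt (ENSMUSG00000105911.1) had 18 and 34 counts with LARP7 and 0 and 2.15 with IgG, and was called higher (5.56, SE 1.09, adjusted p = 0.00826). RSEM's own posterior SD reached 10.1 times the count for this model, so the division of reads between the copies was poorly determined. Summed, the 2 models had 18 and 34 counts with LARP7 and 57 and 71 with IgG, and the sum was not called (-0.30, SE 0.56, adjusted p = 0.716). In RSEM's posterior mean counts neither was called, at -0.80 (adjusted p = 0.388) for the 136 nt model and 0.18 (adjusted p = 0.858) for the 137 nt model. Snora16a is thus counted once among the higher and once among the lower models, and neither call holds for the symbol as a whole.

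Reads of one locus were also counted under separate models for Scarna3a, which holds the Mir1843b hairpin printed above near its 3' end. Here RSEM's posterior SD was at most 0.0332 times the Scarna3a count, far below that of Snora16a. Scarna3a had 64.6, 29.2, 29 and 6.03 counts in LARP7 replicates 1 and 2 and IgG replicates 1 and 2, and the Mir1843b model had 32.4, 64.8, 56 and 89. Their sums were 97, 94, 85 and 95 before scaling, from libraries that differ in total and in TMM factor. Added up, they were not called (log2 1.13, edgeR adjusted p = 0.0936), and Mir1843b alone gave 0.36 (SE 0.58, adjusted p = 0.671). For Scarna13, adding the Mir3069 counts of 0, 5.92, 7.45 and 11.7 left the call in place (2.87, adjusted p = 0.0131). Snora34, whose model overlaps Mir1291, was unchanged by the same step (1.63, adjusted p = 0.026). Snora36b had 3 and 8 counts with LARP7 and 11 and 0 with IgG, and Mir664 had none.

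**Figure D5:**
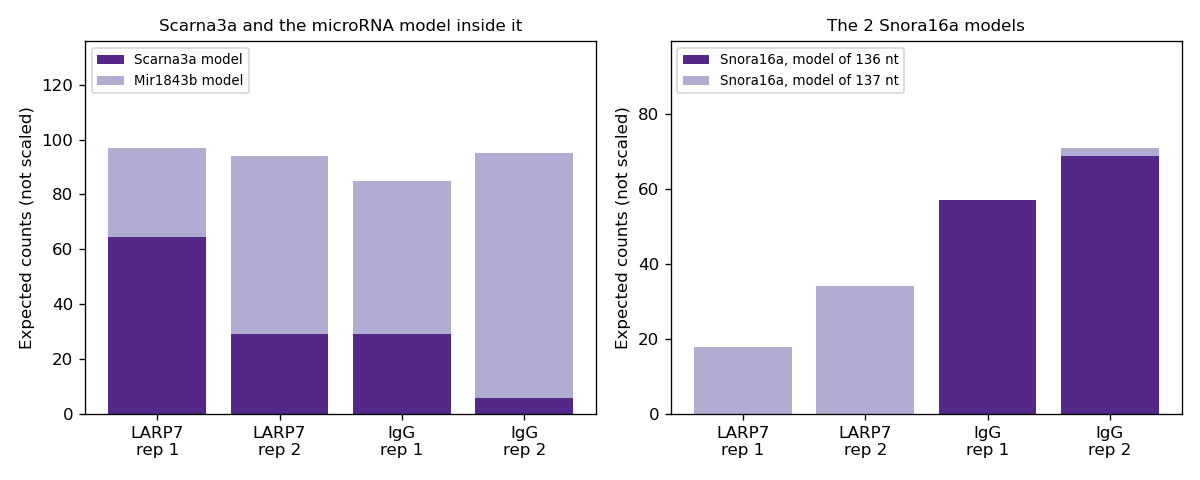
Expected counts, not scaled, in each library of the models that share sequence: Scarna3a with the Mir1843b hairpin, and the 2 Snora16a models. The Scarna3a and Mir1843b sums are 97, 94, 85 and 95, and the Snora16a sums are 18 and 34 with LARP7 against 57 and 71 with IgG.

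RefSeq listed 48 of the members' 49 symbols and placed 47 within the span of another gene, 35 of them in protein-coding genes and 12 in long non-coding RNAs only. Ribosomal protein genes held 12. The table used gives no strand or exons, so intron and exon are not told apart. Of 40 host gene models, 34 were tested; 4 were higher (Eif4a2, Rpl23, Rps12 and Snhg12), beside 14.5% of all models, and 1, Eif5, was lower, beside 9.69%. The median log2 difference of the tested hosts was 0.25. With library totals 3 were higher and 15 lower, beside 3.74% and 46.6% of all models. The shares of hosts higher under TMM and lower with library totals are near those of all models, and the other counts are small.

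Few hosts were called, and few called guides lay in one. All 6 Snora models called higher that had a placed host had a tested one. It was called higher for 1, Snora61 in Snhg12, beside 14.5% of all models. Of 6 such Scarna models 3 had a tested host (Atg16l1, Cep295 and Ncapd2), and edgeR called none of these, at differences of 1.55, -0.42 and -0.17. Among 14 Snora models with a placed host that were not called, 3 had a host called higher. Of the 2 Snora models called lower, the 136 nt Snora16a model also lay in Snhg12. Snhg12 had 153 and 149 counts with LARP7 and 32.4 and 22.3 with IgG (3.64, SE 0.44, edgeR adjusted p = 0.00223; library totals 2.23). Snora44 lies in the same host, and Snora61 counts per Snora44 count were 6.67 and 12.3 with LARP7 and 0.874 and 3.99 with IgG, without overlap. This ratio was not tested, and it rests on 22 and 6 Snora44 counts with LARP7. Eif4a2, an RNA helicase of translation initiation, was higher (3.35, SE 0.64, adjusted p = 0.00891), while Snora81 within it was not. Rpl23 was higher (2.27, SE 0.48, adjusted p = 0.0118), and Snora21 within it was not called.

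Of the mRNAs that serve the H/ACA particle, none passed as higher with LARP7; an assembly factor (Ruvbl2) and the Cajal body genes Coil and Smn1 were lower, and no tested gene of the particle's core was called. Of 23 genes listed for the particle's core, assembly, end processing, Cajal bodies and telomerase, 21 were found by symbol and 16 were tested. None was called higher by edgeR (1 was positive at an unadjusted p under 0.05) or by DESeq2, and the 3 lower calls stand beside 9.69% of all models. With library totals 8 of the 16 were lower, close to the 46.6% of all models. DESeq2 called 0 lower, beside 6.74% of all models. Lower calls were also fewer in the fits that left out 1 library, which have less power. The median log2 difference was -0.48. Of the 3, Coil, the marker protein of Cajal bodies, had 47 and 26 counts with LARP7 and 348 and 140 with IgG (-1.45, SE 0.45, adjusted p = 0.0386). Smn1, which works in assembling spliceosomal particles, had 4 and 3 against 37 and 47 (-2.54, SE 0.79, adjusted p = 0.038). Ruvbl2, an ATPase that helps assemble snoRNA particles, had 20 and 27 against 197 and 90 (-1.38, SE 0.43, adjusted p = 0.041). Nop10, Nhp2 and Gar1, of the core, were not called, and Dkc1, the gene of the pseudouridine synthase, had too few counts to test. Terc, the telomerase RNA, which ends in an H/ACA domain, had 7 and 19 counts against 17 and 0 and was not called (2.02, SE 1.09, adjusted p = 0.19).

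Marker mRNAs of testis cells were also lower as a share of the library with LARP7, while under TMM few were called. With library totals edgeR called 7 of 8 germ cell, 3 of 3 tested Sertoli cell and 4 of 4 Leydig cell markers lower, beside 46.6% of all models. Counts of 8 germ cell markers summed to 358 and 264 CPM of the library total with LARP7 and 2515 and 1823 with IgG. Sertoli cell markers summed to 8.39 and 6.32 against 37.2 and 33.6, Leydig cell markers to 22.1 and 23.6 against 73.3 and 62.3, and blood markers to 2.02 and 0.923 against 4.58 and 3.4. Under TMM edgeR called 2 of 8 germ cell markers (Prm1 and Tnp2), 1 of 3 tested Sertoli cell markers (Wt1) and 0 of 4 Leydig cell markers lower (0 at an unadjusted p under 0.05), beside 9.69% of all models. The Leydig cell markers lay between -0.30 and 0.06 on the log2 scale. All 8 germ cell, 4 Sertoli cell and 4 Leydig cell markers were detected, and 1 of 4 blood markers was at 0 in all libraries. Their part in the differences above was not tested. Both groups are pull-down libraries without input RNA, so marker shares here do not measure the cells present in the lysates.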

How the data were processed

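RIP libraries from testis, 2 with LARP7 antibody and 2 with IgG, were analysed as deposited. Per the labels' protocols, lysis used 150 mM NaCl, binding took 4 h and washes used 500 mM NaCl. The submitters' processing notes name cutadapt, Bowtie2, RSEM and the build mm10; tool versions were not given in the sources used here. The files deposited by the authors hold expected counts (estimated counts that need not be whole), posterior mean counts with their SD, and TPM.

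Expected counts were rounded and tested in R 4.3.3 with edgeR 4.0.16: filterByExpr (minimum count 10), TMM and two-sided quasi-likelihood tests (robust), adjusted by Benjamini-Hochberg over 12234 models at a threshold of 0.05. CPM values use TMM-scaled library sizes unless named as library totals. Class ratios within a library were compared by exact permutation. Scripts were tested on simulated counts. Alternatives were library totals, no filter, posterior mean counts, models of one symbol summed, a replicate block, each library left out, DESeq2 1.42.0, and limma 3.58.1 on log2(TPM + 1); adding embedded microRNA counts was chosen after seeing the data.

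Named members were all Scarna models with counts, all Snora models called, the 10 most abundant Snora models and members at 0 in a whole group. Members and lists (H/ACA particle genes, host genes, cell type markers) were chosen with earlier results of these data known. Positions, hosts and hairpins come from RefSeq tables of GRCm38.p6, which held 48 of 49 member symbols. Intervals and floors cover counting error only. Whole member sequences are not shown, the embedded hairpins being the stretches found in the tables used.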

Additional observations from a re-analysis of the deposited data

How the results depend on the processing

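Results depended most on scaling. With library totals, Snora models called numbered 2 higher and 4 lower (7 and 2 under TMM), Scarna 2 higher, H/ACA particle genes 8 of 16 lower (beside 46.6% of all models), and the sums were -0.14 for Snora and 0.85 for Scarna; Snora7a (-1.06), Snora31 (-0.98) and Scarna8 (-0.47) turned negative. With limma on TPM, 0 Snora and 0 Scarna models were higher, beside 0.0409% of all models. On that scale 1 Snora model and 0 particle genes were lower, beside 0.155%, and the sums were -1.32 for Snora and -0.36 for Scarna. Members that turned negative there were Snora7a (-1.84), Snora21 (-0.87), Snora62 (-0.57), Snora61 (-0.51), Snora3 (-0.77), Snora31 (-1.66), Snora30 (-0.53), Snora34 (-0.92), Snora57 (-0.04), Snora64 (-0.80), Scarna9 (-0.10), Scarna2 (-0.21), Scarna17 (-0.39), Scarna8 (-1.65) and Scarna10 (-0.20). For both scalings the cause was not tested. Lower Snora calls numbered 0 with posterior mean counts, 1 with models of one symbol summed and 1 with DESeq2. DESeq2 called 0 particle genes lower, beside 6.74% of all models. Leaving out 1 library gave 3 to 14 higher and 1 to 2 lower Snora calls, 3 to 7 higher Scarna calls, 0 to 1 higher and 0 to 2 lower particle genes, and Scarna sums of 1.89 to 2.63. Each such fit has 1 library in a group, assumed to vary like the others. Among the members named by the rule given above, signs turned there for Snora7a (-0.16 to 0.98, and -0.12 without IgG replicate 1), Snora68 (-1.50 to 1.28, and 0.33 without LARP7 replicate 1) and Scarna8 (-0.45 to 1.90). They turned for 6 other tested members as well, Snora44 (-1.33 to 0.73) among them. The replicate block called 9 Snora and 7 Scarna models higher, beside 17.1% of all models, and the Snora sum (1.26, edgeR adjusted p = 0.0448). Same-numbered libraries deviated together (r = 0.2 over 12234 models, 0.709 over 33 members), but with 2 pairs the numbers are not shown to pair samples. The 2 libraries per group and the low counts of most members limit all of these tests.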
